A study of Homo sapiens with 4 samples.

Results

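The CLCN5 cluster is a run of microRNA (miRNA) hairpin genes inside the X-linked gene CLCN5, which encodes an endosomal chloride and proton exchanger best known from the kidney tubule. Its members were chosen by assay name, taking every assay for miR-362, miR-500, miR-501, miR-502, miR-532 or miR-660 with or without an arm suffix and leaving out passenger strands marked as such. This gave 10 of the 377 human miRNA assays. The cluster was picked with earlier results of these data known, its arm use and compartment differences among them, so its values are given as a description and no test was made.

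TaqMan array cards, which run a quantitative PCR for each miRNA in a well of its own, were used on RNA from RPMI8226, an established cell line of human multiple myeloma, and on RNA from the exosome fraction of its culture medium. There were 4 samples, 1 per group: normoxic cells (20% O2), hypoxic cells (1% O2), and the exosome fractions from normoxic and hypoxic cultures, all taken after 24 h in AIM-V medium. The exosome fraction is what a polymer reagent precipitated from 5 ml of cleared and filtered medium, so it is enriched in small vesicles but not purified from everything else in the medium. Only the exosome products were pre-amplified before the card, per the labels' protocols.

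An miRNA gene is transcribed as a hairpin, and cutting of the hairpin leaves a duplex of a 5p and a 3p arm. Usually 1 arm of the duplex is retained in the silencing complex, where its seed, bases 2 to 8, pairs with target messages. MiRNAs of a genomic cluster can come from a single primary transcript, and a share of a cell's mature miRNAs leaves it in vesicles or bound to protein.

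According to the RefSeq gene table (GRCh38.p14), the cluster holds 8 miRNA genes within 11.5 kb, at chrX:50003148-50014683. All 8 lie within the bounds of CLCN5 (chrX:49922596-50099230), beginning 80.6 kb after the start of that gene. In order they are MIR532, MIR188, MIR500A, MIR362, MIR501, MIR500B, MIR660 and MIR502. Exon boundaries were not used here, so the intronic position is taken from the name given to the cluster. Of the 10 assays, 8 matched a mature RefSeq miRNA by name. The assay named miR-500 was matched to MIR500A through its older name, and the names miR-500 and miR-660 do not say which arm is measured.

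The mature sequences of these assays are shown because several of them are close relatives and because the results turn on pairs of arms from the same hairpin. They are RefSeq sequences of GRCh38.p14, all on the plus strand, and capitals mark the seed.
miR-532-5p: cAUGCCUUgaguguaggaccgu
miR-532-3p: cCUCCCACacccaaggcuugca
miR-500a-5p: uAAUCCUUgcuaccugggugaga
miR-500a-3p: aUGCACCUgggcaaggauucug
miR-362-5p: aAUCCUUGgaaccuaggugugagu
miR-362-3p: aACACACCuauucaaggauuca
miR-501-5p: aAUCCUUUgucccugggugaga
miR-501-3p: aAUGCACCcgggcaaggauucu
miR-502-5p: aUCCUUGCuaucugggugcua
miR-502-3p: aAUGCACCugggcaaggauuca

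The 5p arms of miR-500a, miR-362, miR-501 and miR-502 all contain AUCCUU, which 17 of 2370 mature RefSeq miRNAs contain on their own strand (0.717%). It begins at base 3 in miR-500a-5p, at base 2 in miR-362-5p and miR-501-5p, and at base 1 in miR-502-5p, so these 4 relatives have 4 different seeds. On the 3p side, miR-501-3p and miR-502-3p share the seed AUGCACC. They differ by the substitutions C9U and U22A, counted from the 5′ end of miR-501-3p. MiR-500a-3p starts 1 base further in and shares a run of 20 bases with miR-502-3p. Signals of assays this similar could be split between relatives, and the specificity of the probes was not tested. MiR-362-3p has a different seed, ACACACC, which it shares with miR-329-3p of chromosome 14. MiR-362-5p shares its seed, AUCCUUG, with miR-500b-5p, the 5p arm of MIR500B in the same cluster. Neither miR-532 arm shares its seed with another mature miRNA of the table.

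The values are threshold cycles (Ct): the cycle of the PCR in which the fluorescence of a well passes a set level. A well with more template gets there earlier, and at full efficiency each cycle earlier means 2-fold more template. The highest Ct, 35, was read as a ceiling meaning not detected. Each value comes from 1 well of 1 sample, so differences between groups carry no replicate error, and no depth or count stands behind them. The repeat measurement on each card is U6, a small nuclear RNA, whose Ct averaged 18.82 ± 0.15 (normoxic cells) and 18.81 ± 0.12 (hypoxic cells; SD, n = 4 wells per card). Its wells spread over at most 0.33 cycles, and this range is the yardstick used here for gaps between assays. The yardstick comes from cells at early cycles. The spread of wells at later cycles or in the exosome fraction was not measured and may be wider. U6 was at the ceiling in the exosome fraction, where the spike-in ath-miR159 stood at 22.94 and 22.99. The 5 blood and lymphoid markers examined, among them miR-142-3p and miR-150, were detected in all 4 samples. So were miR-126 (endothelial), miR-203 and miR-205 (epithelial), miR-9 (neural) and miR-199a-3p (fibroblast), while miR-122 (liver) and miR-145 (fibroblast) were in none. The remaining markers were detected in part of the samples. MiR-200c (epithelial) was detected in the cell samples only, and miR-124 (neural) and miR-1 (muscle) in the exosome samples only. MiR-133a (muscle) was at the ceiling in normoxic cells alone. MiR-451 (red cell) was detected only in the normoxic exosome fraction, and miR-143 (fibroblast) only in the hypoxic one. MiR-210, the reference miRNA of hypoxia, was 11.7-fold higher in hypoxic than in normoxic cells, and 1.31-fold in the exosome comparison.

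The cluster was only partly detected in cells and wholly detected in the exosome fraction. In each cell sample 6 of the 10 assays had a Ct under 35: miR-532-5p, miR-532-3p, miR-660, miR-362-5p, miR-500 and miR-501-5p. In each exosome sample all 10 did. Over the card, 39% of assays were detected in both cell samples and 53.8% in both exosome samples. The 4 assays seen only in the exosome fraction were miR-362-3p, miR-501-3p and both arms of miR-502, and they are 3 of the 4 named 3p arms and 1 of the 4 named 5p arms. Of all 377 assays, 207 were at the ceiling in both cell samples, and 24.2% of them were detected in both exosome samples. The exosome products had an extra amplification, so detection in the exosome fraction and absence in cells cannot be told apart from the difference in protocol. As these are bulk samples, more cells or vesicles and more RNA in each cannot be told apart either.

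**Figure D1:**
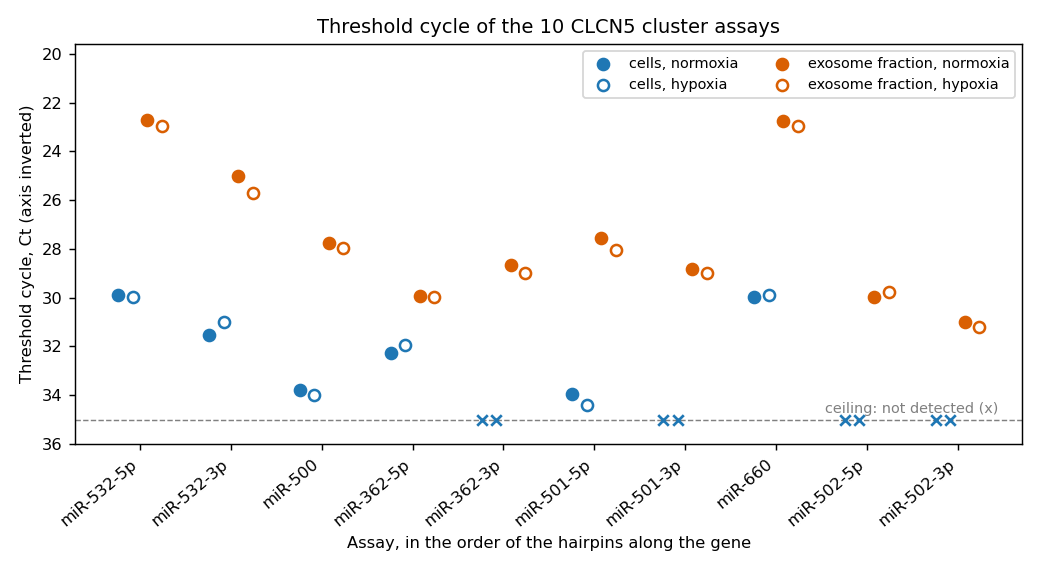
Threshold cycle of each assay in the 4 samples, on an inverted axis so that more template is higher, with assays in the order of their hairpins along CLCN5. Each point is 1 well, and crosses on the dashed line mark wells at the ceiling of 35. The orange exosome points lie above the blue cell points for every assay, by about 7 cycles for miR-532-5p (7.18 in normoxia) and by 2.37 cycles for miR-362-5p.

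MiR-532-5p and miR-660 gave the lowest Ct of the cluster in every sample. MiR-532-5p, reported elsewhere to repress the transcription factor RUNX3, had a Ct of 29.9 under normoxia and 29.98 under hypoxia in cells, against 22.72 and 22.98 in the exosome fractions. MiR-660, which has been reported to repress MDM2, the ubiquitin ligase of p53, had a Ct of 29.97, 29.89, 22.75 and 22.97 in the same order. These 2 assays lay within 0.09 cycles of each other in all 4 samples, closer than the spread of the U6 wells, although their genes are the first and the seventh of the 8 along the cluster. Among all detected assays of normoxic cells they ranked 56 and 59 of 162 by Ct, and in the normoxic exosome fraction 42 and 45 of 221.

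MiR-532-3p came next in every sample. The Ct of hsa-miR-532-3p was 31.55 under normoxia and 30.99 under hypoxia in cells, against 25.01 and 25.7 in the exosome fractions. It thus had its lower cell value under hypoxia and its lower exosome value under normoxia. The gap to the assay before it was 1.57 and 1.0 cycles in cells and 2.26 and 2.72 cycles in the exosome fraction.

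The 5p arm hsa-miR-362-5p, reported to repress the deubiquitinase CYLD, was the fourth assay of the cluster in cells, with a Ct of 32.28 in normoxia and 31.96 in hypoxia. In the exosome fraction it had Ct values of 29.92 and 29.98, and among the same 6 assays it was the last. The distance between its cell and exosome values was far smaller than for any other assay of the cluster detected in all 4 samples. The 3p arm hsa-miR-362-3p, reported to repress E2F1, was at the ceiling in both cell samples and reached 28.66 (normoxia) and 29 (hypoxia) in the exosome fractions. It was not seen in cells, yet stood ahead of miR-362-5p in the exosome fraction.

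MiR-500, also reported to repress CYLD, and miR-501-5p were near the detection limit in cells. MiR-500 stood at Ct 33.78 under normoxia and 33.98 under hypoxia in cells, and at 27.76 and 27.98 in the exosome fractions. MiR-501-5p stood at 33.97 and 34.39 in cells, and at 27.56 and 28.03 in the exosome fractions. Under normoxia the pair lay 0.19 cycles apart in cells and 0.21 in the exosome fraction, and under hypoxia 0.05 apart in the exosome fraction, all within the U6 spread. In hypoxic cells the gap was 0.4.

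The remaining assays were measured in the exosome fraction alone. The assay hsa-miR-501-3p, of a miRNA known from work on glutamate receptor synthesis in dendrites, had Ct values of 28.83 (normoxia) and 29.01 (hypoxia), beside miR-362-3p within 0.17 cycles. MiR-502-5p, reported to repress the histone methyltransferase KMT5A, had a Ct of 29.98 and 29.77. MiR-502-3p was last of the cluster in both fractions, with 30.99 and 31.2. Ct values of different assays depend on the efficiency of each assay, so this order ranks signals and not numbers of molecules.

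Of the neighbouring MIR188 gene, outside the naming rule, miR-188-3p was at the ceiling in all 4 samples, and miR-188-5p was not analysed here. The assay for miR-329, the seed relative of miR-362-3p, was also at the ceiling in all 4. The seed ACACACC was thus measured through miR-362-3p in the exosome fractions only, and neither assay was detected in cells.

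Arm use was compared within each hairpin as the Ct of the 3p arm minus that of the 5p arm, in cycles, so that a value above 0 means the stronger signal came from the 5p arm. For miR-532 the difference was 1.65 under normoxia and 1.0 under hypoxia in cells, against 2.29 and 2.72 in the exosome fractions. The 5p arm led in all 4 samples, more so in the exosome fraction. For miR-502 both arms were at the ceiling in cells, and the difference was 1.01 and 1.43 in the exosome fractions, again in favour of the 5p arm. For miR-501 the 3p arm was at the ceiling in cells, so that the difference was at least 1.03 in normoxic and at least 0.61 in hypoxic cells. It was 1.28 and 0.97 in the exosome fractions, so the exosome values lie close to the cell bounds, and a shift in either direction cannot be read.

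MiR-362 had the opposite order of arms in cells and exosome fraction. Its hairpin is shown because the 2 arms changed places. It lies at chrX:50008964-50009028 on the plus strand (RefSeq, GRCh38.p14), and capitals mark the 5p and then the 3p mature arm.
MIR362: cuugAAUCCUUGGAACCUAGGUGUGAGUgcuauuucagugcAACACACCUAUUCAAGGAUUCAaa
In cells the 5p arm alone was detected, and the 3p arm was at least 2.72 cycles later in normoxia and at least 3.04 cycles later in hypoxia. In the exosome fraction the difference was -1.25 in normoxia and -0.98 in hypoxia, the 3p arm being the stronger. The arm difference thus moved by at least 3.97 cycles toward the 3p arm in normoxia and by at least 4.02 in hypoxia, or at least 15.7-fold and 16.2-fold at full efficiency. A constant Ct offset between the 2 assays cancels in this shift. A difference in efficiency per cycle, which was not measured, or in pre-amplification, which only the exosome products went through, does not. Compartment and pre-amplification cannot be told apart.

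**Figure D2:**
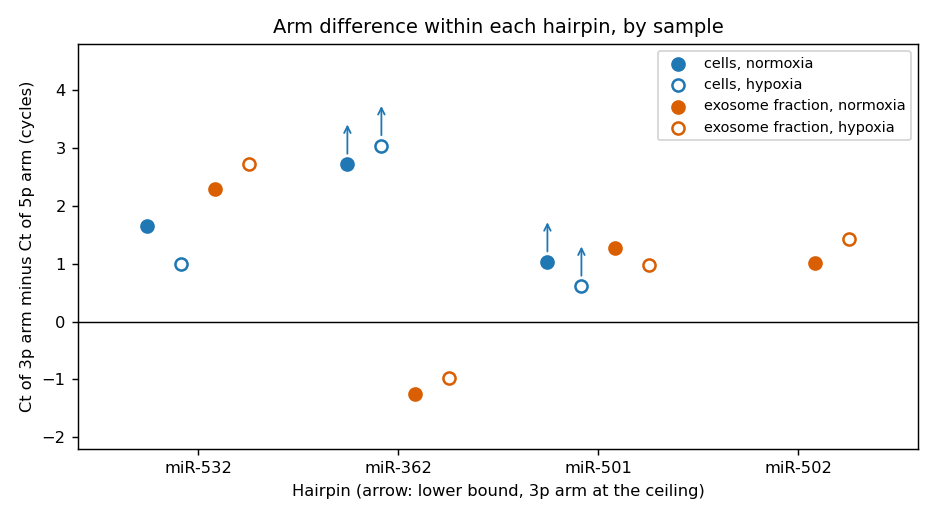
Ct of the 3p arm minus Ct of the 5p arm, in cycles, for the 4 hairpins with both arms on the card. Points above 0 have the stronger 5p signal, and arrows mark lower bounds where the 3p arm was at the ceiling in cells. Of the 4, miR-362 alone lies on both sides of 0, at 2.72 or more in normoxic cells and -1.25 in the normoxic exosome fraction.

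The card holds 48 pairs of named 5p and 3p assays, and in 12 of them the order of the arms could be read in cells and both arms were measured in the exosome fraction. The order was opposite between the compartments, at both oxygen levels, in 3 of the 12: miR-324, miR-339 and miR-362. In miR-339 the arms were within 0.03 cycles of each other in cells, and in miR-324 within 0.09 cycles in hypoxic cells, which is inside the spread of the U6 wells. MiR-362 was the only one of the 3 with every difference outside that spread. In the 7 pairs with both arms measured in all 4 samples, miR-532 among them, the shift from cells to exosome fraction went toward the 5p arm in 7 of 7 in normoxia (0.38 to 3.8 cycles) and in 6 of 7 in hypoxia (-0.35 to 4.49 cycles). The shift of miR-362 was in the other direction. With bounds included, the direction could be read in 11 pairs at each oxygen level, and it was toward the 3p arm in 2 of them in normoxia and in 3 in hypoxia. Besides miR-362 these were miR-330 in normoxia (by at least 7.44 cycles, its 5p arm being at the ceiling in the exosome fraction) and miR-28 (2.22 cycles) and miR-886 (0.35) in hypoxia. A shift toward the 3p arm was therefore not particular to miR-362.

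The exosome fraction was set against the cells for the 6 assays of the cluster detected in all 4 samples. Each sample was centred on its median Ct over the 138 such assays of the card, because no control was measured in both compartments. Relative to these sample medians, miR-362-5p was 24.0-fold lower in the exosome fraction than in cells in normoxia and 32.1-fold lower in hypoxia. On the log2 scale these differences were -4.58 and -5.01, the fifth and the fourth lowest of the 138. In uncentred values its Ct was 2.37 cycles lower in the normoxic exosome fraction than in cells and 1.98 lower in hypoxia, while the median of these steps over the 138 assays was 6.51 and 6.15 cycles. Against that median step it was 17.6-fold lower in normoxia and 18.1-fold lower in hypoxia. MiR-362-5p was the 1 assay of 6 at least 4-fold lower at both oxygen levels, and none was at least 4-fold higher. Over the card 16.7% of the 138 assays were at least 4-fold lower and 2.9% at least 4-fold higher. With each sample centred on its mean, 16 were lower and 9 higher, in place of 23 and 4, and miR-362-5p was at -3.93 in normoxia and -4.07 in hypoxia, 15.2-fold and 16.8-fold lower.

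For the other 5, the log2 differences ran from -0.93 to 0.27 in normoxia and from -1.7 to 0.02 in hypoxia. The middle 50% of the 138 assays lay between -1.53 and 0.34 and between -1.98 and 0.02, so these 5 were inside the main range of the card. MiR-532-5p (0.23 and 0.02) and miR-660 (0.27 and -0.06) were at the upper end, miR-500 (-0.93 and -0.98) and miR-501-5p (-0.53 and -0.63) lay below, and miR-532-3p went from -0.41 in normoxia to -1.7 in hypoxia. The median over the 6 was -0.47 in normoxia and -0.81 in hypoxia, beside -0.44 and -0.83 over all 138, so the typical assay of the cluster sat where the typical assay of the card did. These values move with the centring. With the mean, all of them were higher by about the same amount: miR-501-5p (0.12 and 0.30), miR-532-3p in normoxia (0.24) and miR-660 in hypoxia (0.87) came out above 0, and miR-532-5p was at 0.89 and 0.95. For the 4 assays at the ceiling in cells only a lower bound exists, from -2.94 for miR-502-3p to -0.61 for miR-362-3p in normoxia, and such bounds below 0 give no direction.

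**Figure D3:**
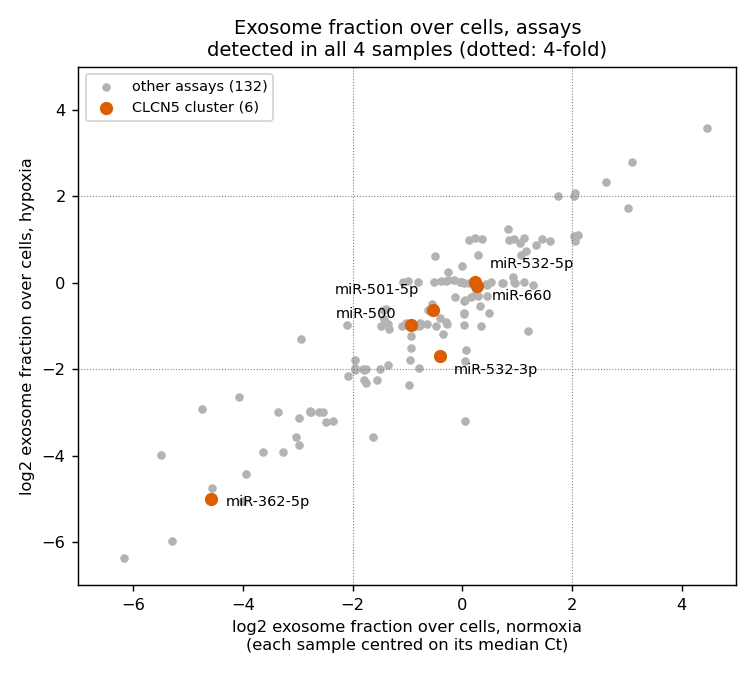
log2 exosome fraction over cells in normoxia (horizontal) and hypoxia (vertical) for the 138 assays detected in all 4 samples, each sample centred on its median Ct, with dotted lines at 4-fold. The 6 assays of the cluster are orange: 5 lie in the main cloud, and miR-362-5p lies at -4.58 and -5.01, apart from them.

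The span between the highest and lowest assay of the cluster was 4.85 in normoxia and 5.02 in hypoxia on the log2 scale. Without miR-362-5p it was 1.2 and 1.72. Of the other genomic clusters, defined as miRNA genes of 1 strand with neighbours within 10 kb, those with at least 4 assays detected in all 4 samples were the miR-17-92 cluster and its X-linked relative, the miR-106a-363 cluster. Their spans were 6.13 and 4.71 for the 6 assays of miR-17-92 and 4.2 and 3.8 for the 5 of miR-106a-363. Both share the assays of miR-19b and miR-92a, which cannot be assigned to 1 cluster. In normoxia the miR-17-92 cluster had the widest span, and in hypoxia the CLCN5 cluster did, with miR-17-92 close to it. A span of about this size was therefore not particular to the CLCN5 cluster.

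The oxygen comparison asked whether the cluster differed between hypoxia and normoxia, after normalizing cells to U6 and exosome fractions to the spike-in. No assay of the cluster was past 2-fold in either compartment. In cells the 6 measured assays had log2 differences, hypoxia over normoxia, from -0.42 for miR-501-5p to 0.56 for miR-532-3p, 3 above 0 and 3 below. The others were miR-362-5p at 0.32, miR-660 at 0.08, miR-532-5p at -0.08 and miR-500 at -0.21. Among all 147 assays measured in both cell samples, 13.6% were past 2-fold, with a median log2 difference of 0.03. The cluster held none of the assays behind that share.

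In the exosome fraction all 10 assays could be compared, and 9 of the 10 were below 0. The log2 differences ran from -0.64 for miR-532-3p to 0.26 for miR-502-5p, with a median of -0.16. After miR-532-3p the lowest were miR-501-5p at -0.43 and miR-362-3p at -0.29. Over the card the median was -0.07, 58.1% of the 203 measured assays were below 0 and 7.39% were past 2-fold. In the authors' deposited table the ratio of hypoxia over normoxia is 1.4699 for miR-532-3p in cells and 0.6424 in the exosome fraction, which the values computed here match. The same table gives 0.9965 in cells for miR-362-3p, miR-501-3p, miR-502-5p and miR-502-3p, a ratio of ceiling values that was not used as a measurement.

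**Figure D4:**
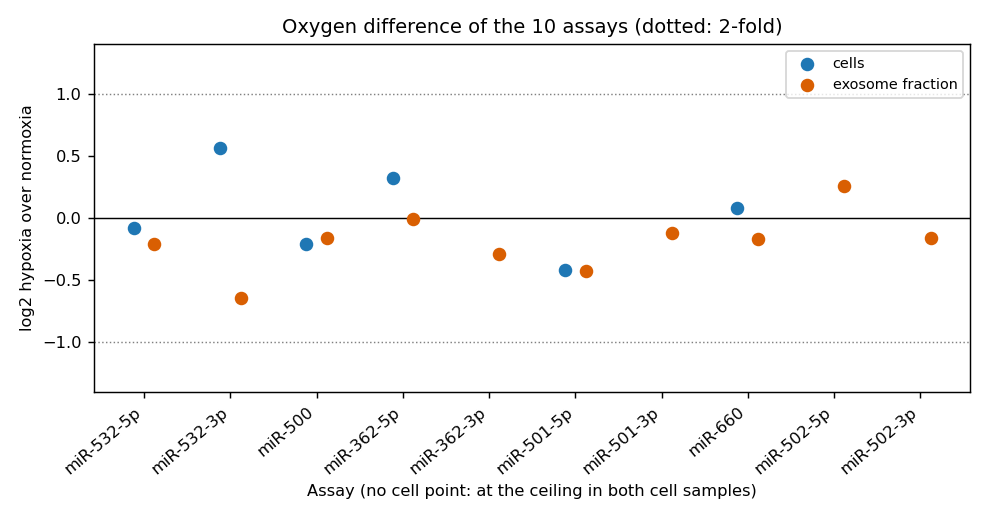
log2 hypoxia over normoxia of the 10 assays in cells (blue, normalized to U6) and in the exosome fraction (orange, normalized to the spike-in), with dotted lines at 2-fold. All points lie between the dotted lines. MiR-532-3p has the widest separation, at 0.56 in cells and -0.64 in the exosome fraction.

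The response of the exosome fraction was then set against that of the cells. For miR-532-3p, which has been reported to repress the apoptosis inhibitor ARC in heart muscle cells, the log2 difference was positive in cells (0.56) and negative in the exosome fraction (-0.64). The response was thus lower by 1.19 on the log2 scale in the exosome fraction, or 2.29-fold. It was the 1 assay of 6 at least 2-fold lower, where 10.1% of the 138 assays of the card were. The 5 others ranged from -0.33 for miR-362-5p to 0.04 for miR-500, and miR-501-5p had nearly equal responses, -0.42 in cells and -0.43 in the exosome fraction. The median over the 6 was -0.18, beside -0.17 over the card.

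The hairpin of miR-532 allows the same comparison without any normalizer, because the 5p arm of the same hairpin can serve as the reference. It is shown for that reason, at chrX:50003148-50003238 on the plus strand (RefSeq, GRCh38.p14), with the 5p and then the 3p mature arm in capitals.
MIR532: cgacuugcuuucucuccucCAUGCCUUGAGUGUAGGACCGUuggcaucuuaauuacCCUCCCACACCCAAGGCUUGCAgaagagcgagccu
From normoxia to hypoxia the difference between the arms, 3p minus 5p, moved by -0.64 cycles in cells, toward the 3p arm, and by 0.43 cycles in the exosome fraction, toward the 5p arm. Among the 7 pairs measured in all samples such oxygen shifts ran from -0.89 to 0.87 cycles in cells and from -0.38 to 0.64 in the exosome fraction, with miR-532 among them. The difference between its 2 shifts, exosome fraction minus cells, was 1.07 cycles, the largest of the 7 in size, followed by 0.97 for miR-193a. This value rests on the same miR-532-3p wells as the response above, so it is not an independent measurement.

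Likeness between profiles was measured as the Euclidean distance between centred Ct values over the 4 samples, after each assay's own mean was removed. It is a description over 4 points, and all assays share the same 4 samples. Within the cluster the closest pair was miR-532-5p and miR-660, at 0.12 cycles. Outside it, both had miR-484 and miR-125b among their 3 nearest assays (0.13 to 0.17 cycles), with let-7c (0.18) as the third for miR-532-5p and miR-146a (0.15) for miR-660. MiR-500 was nearest to miR-17 (0.11), miR-106a (0.14) and miR-140-5p (0.15). MiR-501-5p was nearest to miR-330-3p (0.12), miR-18b (0.2) and miR-95 (0.29). The nearest to miR-532-3p were miR-191, let-7e and miR-301b, each at 0.39. MiR-362-5p was nearest to miR-125a-5p (0.27), then miR-9 and miR-142-3p (0.71 each), and its nearest relative in the cluster was 3.77 cycles away. MiR-142-3p, a miRNA of blood cells, had a Ct of 24.95 and 24.97 in cells and 21.95 and 22.41 in the exosome fraction. Whether the step between the compartments goes with the level of an assay was not tested.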

How the data were processed

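The authors' deposited Ct table, not normalized, holds 1 value per well of a TaqMan card for 4 samples. Per the series' design text, a U6 RNA and the spike-in ath-miR159 were the controls for cells and exosome fraction, and Data Assist Software 3.1 was used. The authors' second deposited table gives the ratio (fold) of hypoxia over normoxia. From 3 µl of each 50 µl eluate RNA was reverse transcribed, per the labels' protocols. The origin of the ceiling of 35: not given in the sources used here.

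Log2 differences were computed as negative differences of normalized Ct, with Python 3.11.15, pandas 2.3.3 and numpy 2.4.6. An assay counted when its Ct was under 35 in every sample of a comparison. The thresholds were 2-fold for oxygen and 4-fold, at both oxygen levels, for compartment. No test was made: each group is 1 sample, and an additive model of the 4 samples would use the difference between responses, itself compared here, as error. The calculation of the oxygen difference within a compartment was tested on simulated data with planted 4-fold changes. The comparisons between compartments, arms and profiles were not simulated. For locating clusters, 327 of 377 assays matched a RefSeq miRNA gene. All assays of the naming rule were named, with miR-188, seed relatives, miR-210 and the 3 nearest profiles. The members and lists were chosen with earlier results of these data known. Alternatives covered normalizer, Ct limit, centring and threshold.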

Additional observations from a re-analysis of the deposited data

Results flagged for a closer look

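In 3 assays of the cluster the oxygen difference had opposite signs in cells and exosome fraction, each compartment being 1 sample. The difference of the log2 responses, exosome fraction minus cells, was -1.19 for miR-532-3p, -0.33 for miR-362-5p and -0.24 for miR-660. None of these differences was tested. For miR-362-5p the exosome value was close to no change (-0.01). With RNU44 and RNU48 as normalizer, miR-660 was at -0.07 in cells, the same sign as its -0.17 in the exosome fraction. Over the card, 72 of the 138 assays detected in all 4 samples had opposite signs (52.2%), and 3 of 6 in the cluster did.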

How the results depend on the processing

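With RNU44 and RNU48, the median Ct or fewer U6 wells as normalizer, no assay of the cluster passed 2-fold in cells. With RNU44 and RNU48 or the median Ct, miR-532-3p was still its 1 assay past 2-fold in the difference of responses. With Ct under 32 required, fewer assays were counted. The counts over the card were then 5 in cells (in place of 20), 2 in the exosome fraction (15) and 7 for the difference of responses (22). For exosome fraction over cells the count was 14 (27), with 89 assays in place of 138. There each sample was also centred anew, on its median over those 89 assays, so the number of assays was not the only change. The limit of Ct under 32 leaves out miR-362-5p, so 0 assays of the cluster were past 4-fold. At 2-fold in place of 4-fold, 49 assays of the card and still 1 of the cluster were past the line. The share of lower calls was 85.2% with the median and 64.0% with the mean as centre. If the ceiling is read as 34, a choice made after seeing the data, the shift of the miR-362 arms has its bound at -2.97 cycles in normoxia and -3.02 in hypoxia, toward the 3p arm as before. Of 92 alternative values for single assays, 76 kept their call or moved by less than the larger SD of the U6 wells in cells (0.15 cycles). The other 16, all for exosome fraction over cells, moved by more. No paired analysis was possible because the groups share fewer than 2 replicate numbers; exosome fraction over cells is given at each oxygen level as values. With 1 sample per group, no replicate could be left out.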

Other observations

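Many Ct values of the table lie close to a whole cycle. Within 0.05 cycles of a whole number were 383 of the 757 detected values of the card (50.6%), from 38.9% in normoxic cells to 60.6% in hypoxic cells, and 16 of the 32 detected values of the CLCN5 cluster. In the cluster this held for 2 of 6 values in normoxic cells, 4 of 6 in hypoxic cells, 3 of 10 in the normoxic and 7 of 10 in the hypoxic exosome fraction. In the hypoxic exosome fraction, miR-362-3p (29) and miR-501-3p (29.01) were of this kind, as were miR-532-5p (22.98) and miR-660 (22.97). In the normoxic exosome fraction the first pair was 0.17 cycles apart and the second 0.03. What part the closeness to whole cycles has in differences of under 1 cycle was not tested.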
